A study of Rattus norvegicus with 96 samples.

Results

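The 6 genes described here, Ccdc114, Dnai1, Dnah6, Dynlrb2, Rsph1 and Rsph9, encode parts of the motile cilium and are 6 of the 17637 genes in the count table. Their names were chosen by the study's lists of genes that differed between nicotine (NIC) and saline (SAL) in 1 or more regions of 1 or both sexes, so the NIC against SAL values selected them and are given below as a description, with no test of a single gene. Their correlation between libraries was part of the same choice and is likewise a description. Differences between brain regions were not what the lists compared, and they are tested. The region contrasts pool NIC and SAL libraries, however, so they are not free of the values that selected the names. Counts in SAL rats alone are given for the contrasts over both sexes and between the sexes, not for the fits by sex. All 6 passed the filter on low counts, which left 16879 genes.

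All 32 rats were F1 hybrids of BN (Brown Norway) and F344 (Fischer) inbred parents, from both reciprocal crosses, 16 males and 16 females in early adulthood. In each sex, 8 rats received NIC at 0.4 mg/kg (base) and 8 received SAL, once a day for 4 days, and tissue was taken on day 17 with no further NIC. The ventral tegmental area (VTA), nucleus accumbens (NAc) core and NAc shell of each rat were dissected by hand as bulk tissue and sequenced as separate libraries. The 94 libraries used fall into 12 groups of sex, region and treatment, each of 8 rats except male VTA SAL and female NAc core NIC with 7. In bulk tissue, fewer ciliated cells and less RNA per ciliated cell cannot be told apart.

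Motile cilia beat by means of dynein motors that walk along a ring of doublet microtubules called the axoneme. Outer dynein arms drive the beat, inner arms shape it, and radial spokes carry signals between the central pair of microtubules and the arms. In the brain, tufts of such cilia belong to ependymal cells, which line the ventricles and move cerebrospinal fluid, and a related ciliated epithelium forms the choroid plexus. Neurons and astrocytes carry at most a single primary cilium, which has no dynein arms or spokes. Programmes of motile cilia genes are switched on by RFX factors, which bind the X-box motif, and by the forkhead factor FOXJ1.

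Among the 6, Ccdc114 (ENSRNOG00000021109, listed by RefSeq as Odad1) docks outer dynein arms to the doublet and Dnai1 (ENSRNOG00000013734) is an intermediate chain of those arms. Dnah6 (ENSRNOG00000015581) is a heavy chain, the motor subunit, of an inner arm. Dynlrb2 (ENSRNOG00000012450) is a roadblock light chain found in several dyneins, and it has a close paralogue, Dynlrb1, with which Salmon may have divided some reads. Rsph1 (ENSRNOG00000057862) and Rsph9 (ENSRNOG00000019474) are subunits of the radial spoke head.

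Promoter windows of 250 bases before to 50 after the start of the gene were held for 5 of the 6 genes in RefSeq (build GRCr8). The searched forms were the X-box, written as GTTNCC and GGNAAC up to 4 bases apart, its left arm GTTGCC alone and the forkhead site TGTTTAC, on both strands, and none of the 5 windows held any of them. Of all 33469 rat promoter windows of this length, 0.932% held that X-box, 12.2% held GTTGCC, which overlaps the X-box, and 3.78% held TGTTTAC. A looser X-box, GTTNC and GNAAC up to 5 bases apart, was tried after these promoters had been seen, and it was present in 3 of the 5 windows and in 3.16% of all windows. The 3 windows that held it are shown, and capitals mark the 13 bases of the looser X-box. Whether it relates to the levels of these genes was not tested. It starts 24 bases before the start of Dnah6, 30 before that of Dynlrb2 and 99 before that of Dnai1. A match is a description of the letters, not a shown binding site.
Dnah6, chr4:106842315-106842614 on the minus strand of GRCr8: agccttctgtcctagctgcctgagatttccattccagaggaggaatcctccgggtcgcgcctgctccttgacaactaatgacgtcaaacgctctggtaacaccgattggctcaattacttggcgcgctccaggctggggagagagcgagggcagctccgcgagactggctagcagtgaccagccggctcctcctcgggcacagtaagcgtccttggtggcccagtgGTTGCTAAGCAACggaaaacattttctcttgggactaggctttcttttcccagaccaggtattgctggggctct
Dynlrb2, chr19:61428830-61429129 on the plus strand of GRCr8: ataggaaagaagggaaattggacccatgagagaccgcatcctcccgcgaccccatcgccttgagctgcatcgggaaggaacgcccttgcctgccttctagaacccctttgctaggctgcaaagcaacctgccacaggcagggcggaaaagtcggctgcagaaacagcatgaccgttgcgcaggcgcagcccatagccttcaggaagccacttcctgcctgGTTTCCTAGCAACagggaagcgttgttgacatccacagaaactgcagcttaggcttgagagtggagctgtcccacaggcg
Dnai1, chr5:61525829-61526128 on the plus strand of GRCr8: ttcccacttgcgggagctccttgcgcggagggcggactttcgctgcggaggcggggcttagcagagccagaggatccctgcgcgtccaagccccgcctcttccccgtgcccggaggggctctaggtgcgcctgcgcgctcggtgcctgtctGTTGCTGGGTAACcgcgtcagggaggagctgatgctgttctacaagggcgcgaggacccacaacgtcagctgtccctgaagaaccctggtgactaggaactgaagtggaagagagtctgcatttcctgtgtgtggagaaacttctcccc

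The libraries used held between 15868529 and 27736905 counts in all, and levels are given as counts per 1000000 (CPM) after scaling for library composition. Counting error is part of the spread between libraries. In markers of their labelled region 3 libraries stood apart. In male NAc core SAL 1 and male NAc shell SAL 1, Drd1, the D1 dopamine receptor of striatal projection neurons, was at 9.28 and 5.09 CPM against region medians of 92.3 and 82.6. In female VTA NIC 2, Slc6a3, the dopamine transporter that marks dopaminergic neurons, was at 22.6 CPM against a VTA median of 855, and Ttr, the main product of choroid plexus, was at 2553 CPM against a median of 3.10. Results that moved without these libraries are given with and without them.

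The ependymal label was checked against other markers of ciliated ependyma. Ccdc153, a gene of ependymal cells, was detected in all 94 libraries, from 0.696 to 12.3 CPM in the VTA, 2.64 to 15.0 in the NAc core and 2.42 to 21.6 in the NAc shell. Foxj1, Tmem212 and Sntn were not analysed here because no identifier was matched to their symbols. Tppp3, often listed with ependymal cells, was at 169 ± 28.6 CPM (SD, n = 31) in the VTA and 32.9 ± 4.19 (n = 31) in the NAc core and did not follow the 6 genes (r = 0.10 with their mean level). No cells were observed, so the label rests on these genes alone.

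All 6 genes were rare in the tissue. Over the 94 libraries Rsph9 ranged from 5.60 to 24.2 CPM with a median of 11.5, Rsph1 from 1.33 to 10.6 with a median of 5.11, Dnai1 from 1.82 to 9.85 with a median of 4.52, and Ccdc114 from 1.08 to 11.0 with a median of 4.45. Dnah6 and Dynlrb2 varied far more, from 0.210 to 11.2 CPM (a 53.2-fold range, median 1.46) and from 0.202 to 11.1 CPM (55.0-fold, median 1.70). Their lowest values rested on 4 counts each. The ratio of highest to lowest was 4.32 for Rsph9, 5.42 for Dnai1, 7.95 for Rsph1 and 10.2 for Ccdc114. Levels were not compared between genes because they are not scaled to transcript length.

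**Figure D1:**
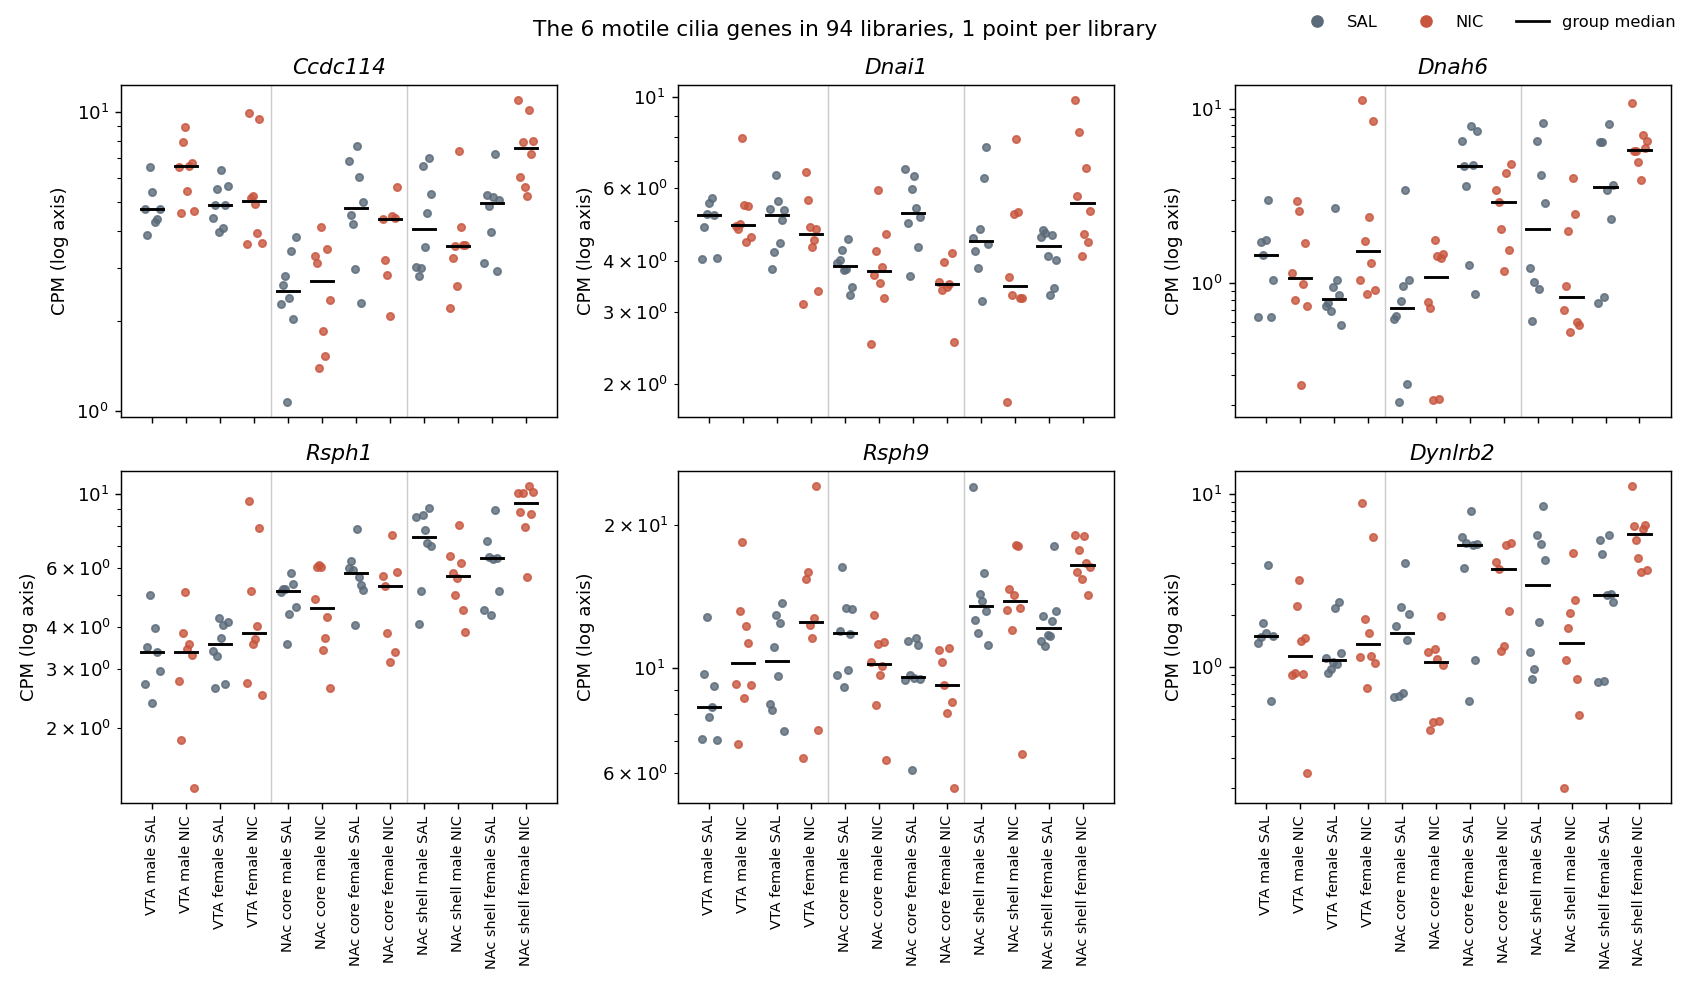
Level of each of the 6 genes in CPM (log axis) in every one of the 94 libraries, grouped by region, sex and treatment, with black bars at the group medians. Dnah6 and Dynlrb2 spread widest, from 0.210 to 11.2 and from 0.202 to 11.1 CPM, and Rsph9 least, from 5.60 to 24.2 CPM.

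The first comparison asked how the 6 genes differ between the regions, averaged over both sexes and treatments. With all 94 libraries 5 of the 6 were higher in the NAc shell than in the NAc core (edgeR quasi-likelihood test, Benjamini-Hochberg adjusted over all 16879 genes, threshold 0.05), and the sixth, Dynlrb2, also had a positive difference. Of all genes, 32.3% were called in this contrast, 16.5% as higher in the shell and 15.8% as higher in the core. Between the VTA and the NAc shell, 4 of the 6 were called, all lower in the VTA, where 80.8% of all genes were called, 40.5% as higher in the VTA and 40.4% as higher in the shell. Between the VTA and the NAc core 3 of the 6 were called, 2 as higher and 1 as lower in the VTA, against 81.6% of all genes, 41.3% as higher in the VTA and 40.3% as higher in the core. The share of the 6 called in the contrasts with the VTA lay below that of all genes, and in the shell to core contrast above it. With SAL rats alone 2 of the 6 were called between shell and core, Rsph1 and Rsph9 (21.3% of all genes), 4 between VTA and shell (74.4%) and 3 between VTA and core (75.9%). With NIC rats alone the counts were 4 (15.0% of all genes), 2 (71.2%) and 3 (71.6%). All 6 had lower mean levels in NIC than in SAL rats in the female core and higher ones in the female shell, as given below.

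Over all libraries the genes of the outer arm had their lowest mean levels in the NAc core. Ccdc114 had a mean of 5.52 ± 1.66 CPM (SD, n = 31) in the VTA, 3.49 ± 1.59 (n = 31) in the NAc core and 5.16 ± 2.20 (n = 32) in the NAc shell. Its 31 libraries from the VTA lay between 3.63 and 9.92 CPM and those from the core between 1.08 and 7.67, so the ranges overlapped. On the log2 scale the VTA was higher than the core by 0.69 ± 0.118 (SE, edgeR adjusted p = 1.33e-07) and the shell was higher than the core by 0.56 ± 0.117 (edgeR adjusted p = 7.99e-05). The difference between the VTA and the shell, 0.14 ± 0.115, was not called (edgeR adjusted p = 0.269). Within single rats, Ccdc114 was higher in the shell than in the core in 27 of 31 and higher in the VTA than in the core in 25 of 30. The SAL females departed from that order between shell and core, with means of 4.96 CPM in the core and 4.71 in the shell (n = 8 each). In SAL rats alone the shell minus core difference of Ccdc114 was 0.37 (edgeR adjusted p = 0.0826).

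Dnai1, the other outer arm gene, had small differences between regions. Its means were 4.98 ± 0.956 CPM (SD, n = 31) in the VTA, 4.19 ± 1.03 (n = 31) in the core and 4.84 ± 1.70 (n = 32) in the shell. The VTA was higher than the core by 0.27 ± 0.0875 on the log2 scale (edgeR adjusted p = 0.00368) and 25 of 30 rats had that direction. The shell was higher than the core by 0.22 ± 0.0869 (edgeR adjusted p = 0.0471), but only 17 of 31 rats had that direction, and the call was lost with the rat as a replicate block, where the log2 difference was 0.19 (edgeR adjusted p = 0.0676). In SAL females the mean of Dnai1 was highest in the core, at 5.32 CPM against 5.02 in the VTA and 4.18 in the shell (n = 8 each). In SAL rats alone the shell minus core difference was -0.0083 (edgeR adjusted p = 0.968), and in NIC rats alone it was 0.44 (edgeR adjusted p = 0.0316).

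The inner arm gene Dnah6 had its highest mean in the shell over all libraries. Its means were 1.86 ± 2.27 CPM (SD, n = 31) in the VTA, 2.36 ± 2.19 (n = 31) in the core and 3.75 ± 2.83 (n = 32) in the shell, with medians of 1.04, 1.42 and 3.53 CPM. The SD was close to the mean in the VTA and the core, and the ranges overlapped in every pair of regions. Dnah6 was lower in the VTA than in the shell (log2 difference -0.997 ± 0.261, edgeR adjusted p = 0.000383), although 10 of 31 rats had more of it in the VTA. The shell exceeded the core by 0.79 ± 0.261 (edgeR adjusted p = 0.0141), in 21 of 31 rats, and the VTA and the core were not told apart (-0.21 ± 0.270, edgeR adjusted p = 0.474). The shell minus core difference was not called in SAL rats alone (0.74, edgeR adjusted p = 0.149) or in NIC rats alone (0.84, edgeR adjusted p = 0.109). In SAL females the mean was 4.64 CPM in the core and 4.01 in the shell (n = 8 each).

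Dynlrb2 had the same order of means as Dnah6 over all libraries. Its means were 1.83 ± 1.68 CPM (SD, n = 31) in the VTA, 2.53 ± 2.01 (n = 31) in the core and 3.57 ± 2.61 (n = 32) in the shell. It was lower in the VTA than in the shell (log2 difference -0.88 ± 0.240, edgeR adjusted p = 0.000589). The shell minus core difference of 0.55 ± 0.238 missed the threshold with all 94 libraries (edgeR adjusted p = 0.0644) and passed it without the 3 libraries that stood apart (0.56, edgeR adjusted p = 0.0487). The VTA minus core difference was -0.33 ± 0.246 (edgeR adjusted p = 0.209). In SAL females the mean was 4.302 CPM in the core and 3.12 in the shell (n = 8 each). The shell minus core difference was 0.31 in SAL rats alone (edgeR adjusted p = 0.539) and 0.80 in NIC rats alone (edgeR adjusted p = 0.109).

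Of the radial spoke head genes, Rsph1 stood in the order of 3.75 ± 1.597 CPM (SD, n = 31) in the VTA, 5.08 ± 1.23 (n = 31) in the core and 7.02 ± 1.96 (n = 32) in the shell, and all 3 differences were called. The log2 difference was -0.90 ± 0.103 between VTA and shell (edgeR adjusted p = 3.87e-13), -0.45 ± 0.104 between VTA and core (edgeR adjusted p = 5.53e-05) and 0.45 ± 0.101 between shell and core (edgeR adjusted p = 0.000253). Only 1 of 31 rats had more Rsph1 in the VTA than in the shell. In the 9 sample preparation batches, named in the labels, that held both regions, the VTA minus shell difference of Rsph1 lay between -1.36 and -0.64 and was below 0 in all 9.

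Rsph9 was at 11.0 ± 3.85 CPM (SD, n = 31) in the VTA, 10.2 ± 2.21 (n = 31) in the core and 14.5 ± 3.28 (n = 32) in the shell. It was higher in the shell than in the core by 0.51 ± 0.0888 on the log2 scale (edgeR adjusted p = 2.84e-06), in 29 of 31 rats and in all 9 batches that held both. It was lower in the VTA than in the shell by a log2 difference of -0.41 ± 0.0883 (edgeR adjusted p = 1.67e-05), in all 9 batches that held both. The VTA and the core were not told apart (0.09 ± 0.0898, edgeR adjusted p = 0.346).

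**Figure D2:**
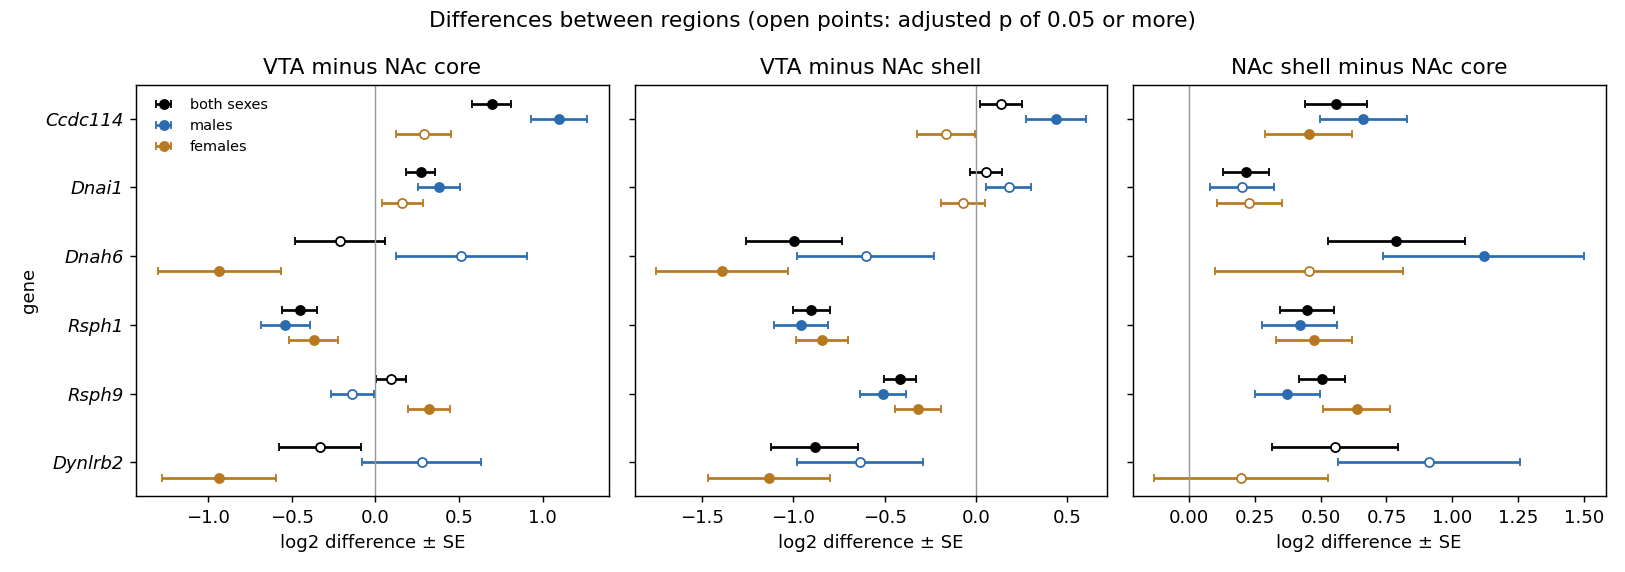
Fitted log2 difference between regions (x axis) for each of the 6 genes (y axis), in both sexes together, in males and in females, with bars of 1 SE and open points where the adjusted p was 0.05 or more. In the panel of shell minus core all points lie above 0, and in the panel of VTA minus core Dnah6 lies at 0.51 in males and -0.93 in females.

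Fitted by sex, the VTA to core contrast was called for 3 of the 6 genes in males, where 74.8% of all genes were called, and for 4 in females, where 73.7% were called. The VTA to shell contrast was called for 3 in males (74.8% of all genes) and 4 in females (71.5%), and the shell to core contrast for 4 in males (19.0%) and 3 in females (20.4%). In males the VTA exceeded the core in Ccdc114 by 1.10 ± 0.168 on the log2 scale (edgeR adjusted p = 1.11e-08), in 15 of 15 rats, whereas in females the difference was 0.29 ± 0.165 (edgeR adjusted p = 0.106), in 10 of 15 rats.

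The difference between the sexes was itself tested as an interaction. For Ccdc114 the VTA minus core difference was larger in males by 0.81 ± 0.235 (edgeR adjusted p = 0.0158), the only call among the 6 with the planned fit, where 11.3% of all genes were called. Ccdc114 in the core ranged from 1.08 to 4.12 CPM (median 2.51, n = 16) in males and from 2.08 to 7.67 (median 4.41, n = 15) in females, whereas in the VTA it ranged from 3.87 to 8.91 (median 5.38, n = 15) and from 3.63 to 9.92 (median 4.91, n = 16). The medians of the sexes differed more in the core than in the VTA, with overlapping ranges in both. Of 19 other ependymal markers, 7 were called as higher and 5 as lower in the VTA than in the core in males (median log2 difference 0.28), and 1 as higher and 12 as lower in females (median -0.89). Of all 16879 genes, 6430 were called as higher and 6199 as lower in males, and 6310 and 6136 in females, so the 7 of 19 in males is about the share of all genes. The difference between the sexes was not tested for the list. Sex and preparation batch are nearly the same split, with 1 of 10 batches holding both sexes, so the sexes and the batches cannot be told apart.

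The VTA minus core differences of Dnah6, Dynlrb2 and Rsph9 had opposite signs in the sexes but did not pass the planned test of that contrast. The VTA minus core difference of Dnah6 was 0.51 ± 0.391 in males and -0.93 ± 0.368 in females, an interaction of 1.45 ± 0.537 (edgeR adjusted p = 0.0650), and that of Dynlrb2 was 0.28 ± 0.355 and -0.93 ± 0.338, an interaction of 1.21 ± 0.490 (edgeR adjusted p = 0.0952). Rsph9 had the other direction, with -0.14 ± 0.127 in males and 0.32 ± 0.127 in females, an interaction of -0.46 ± 0.180 (edgeR adjusted p = 0.0842), and was higher in the VTA than in the core in 5 of 15 males and 12 of 15 females. With the rat as a replicate block 2 of the 6 were called (11.9% of all genes), Ccdc114 (0.77, edgeR adjusted p = 0.0287) and Dnah6 (1.56, edgeR adjusted p = 0.0499). Without the 3 libraries that stood apart 3 were called (10.3% of all genes), with interactions of 0.88 for Ccdc114, 1.69 for Dnah6 and 1.43 for Dynlrb2. In NIC rats alone none of the 6 was called (0.0592% of all genes), and in SAL rats alone 1 was (3.71%). The interaction of Dnah6 was 0.20 ± 0.712 in NIC rats alone and 2.69 ± 0.778 in SAL rats alone. Rats that showed more Dnah6 in the VTA than in the core numbered 12 of 15 males and 3 of 15 females. With the preparation batch as a covariate the same 3 were called (12.8% of all genes), with interactions of 0.91, 1.77 and 1.53. For the VTA to shell and the shell to core contrasts none of the 6 differed between the sexes in the planned edgeR fit after adjustment. Of all genes 6.71% and 0.397% did. In SAL rats alone 0 of the 6 did in either contrast (0.00592% of all genes in each). Ccdc114 was called in the VTA to shell contrast with the preparation batch as a covariate (0.695, edgeR adjusted p = 0.0401, with 8.48% of all genes called) and in NIC rats alone (1.18, edgeR adjusted p = 0.0386, with 3.38%). In the planned fit Ccdc114 alone was under 0.05 before adjustment, in the VTA to shell contrast, and DESeq2 also called none after adjustment.

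Genes that share the axoneme with the 6 were taken by lists, 1 for each structure, of which 149 of 208 symbols had an identifier. List counts include those of the 6 genes that belong to the list, and the lists were drawn up with results of these data known. The list contrasts pool NIC and SAL libraries too, and are not given for SAL rats alone. NIC over SAL lay above 0 for 5 of 5 inner arm genes in the female shell and 0 of 5 in the female core. For other ependymal markers it did so for 17 of 19 and 1 of 19. All 5 inner arm genes with an identifier were higher in the shell than in the core with both sexes in the contrast (16.5% of all genes). Fitted by sex, 4 of 5 were so called in males and 0 of 5 in females. Other ependymal markers were called as higher in the shell for 10 of 19 with both sexes, 12 of 19 in males and 2 of 19 in females, where 1647 of all 16879 genes were so called in males and 1712 in females. Among the inner arm genes was Dnah2, an inner arm heavy chain, at 5.01 ± 3.77 CPM (SD, n = 31) in the VTA, 17.9 ± 9.04 (n = 31) in the core and 26.4 ± 10.2 (n = 32) in the shell. Of 8 outer arm genes 5 were higher in the shell than in the core and none lower, and 7 were higher in the VTA than in the core, where 16.5% of all genes were called as higher in the shell and 41.3% as higher in the VTA. The 7 included the heavy chain Dnah5 (log2 difference 0.72 ± 0.146, edgeR adjusted p = 6.55e-06) and the light chain Dnal1 (0.42 ± 0.0931, edgeR adjusted p = 3.35e-05). With both sexes the outer arm list had a median VTA minus core difference of 0.60, that of the inner arm list was -0.21 and that of all genes tested 0.01. Fitted by sex, the inner arm median was 0.51 in males, with 2 genes called as higher and 1 as lower in the VTA, and -0.93 in females, with 0 higher and 3 lower. That of the outer arm was 0.78 in males (7 higher, 0 lower) and 0.31 in females (3 higher, 1 lower). Of all 16879 genes, 6430 were called as higher and 6199 as lower in the VTA in males, and 6310 and 6136 in females. Ttc25, which docks outer arms alongside Ccdc114, was the single outer arm gene called as lower in the VTA than in the core (-0.44 ± 0.144, edgeR adjusted p = 0.00413).

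Lists of other axonemal parts lay lower in the VTA than in the shell. That held for 10 of 11 proteins inside and along the doublets (median log2 difference -0.93), 7 of 8 central pair genes (median -1.17), 7 of 9 genes of the nexin-dynein regulatory complex and the ruler that spaces it (median -0.33) and 12 of 19 other ependymal markers (median -0.88), with 1, 0, 1 and 1 called in the other direction, where 40.4% of all genes were called as lower in the VTA. Cfap65 of the central pair had 3.49 ± 4.22 CPM (SD, n = 31) in the VTA and 11.2 ± 7.39 (n = 32) in the shell, a log2 difference of -1.68 (edgeR adjusted p = 4.59e-08). Enkur, a doublet protein, was at 4.17 ± 1.80 CPM (n = 31) in the VTA, 13.0 ± 2.64 (n = 31) in the core and 12.6 ± 3.32 (n = 32) in the shell, so its difference lay between the VTA and both accumbal regions (VTA minus core -1.67, edgeR adjusted p = 6.42e-26). Of 7 listed regulators of motile cilia only Rfx2 had a matched identifier. Rfx2 was at 11.9 ± 2.50 CPM (n = 31) in the VTA, 8.27 ± 2.01 (n = 31) in the core and 11.9 ± 2.18 (n = 32) in the shell, lowest in the core as Ccdc114 was. Genes of intraflagellar transport and the primary cilium, which neurons also use, were lower in the VTA than in the shell for 18 of 20 and higher for the other 2.

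Markers of other cells in the dissected tissue also differed between regions. Of 12 choroid plexus genes 7 were higher in the shell than in the core and none lower, and 9 were higher and 1, Aqp1 (named after its values were seen), was lower in the VTA than in the shell (median log2 difference 1.503). Of all genes, 16.5% were called as higher and 15.8% as lower in the shell than in the core, and 40.5% as higher and 40.4% as lower in the VTA than in the shell. Their summed level was 82.2 to 504 CPM in the shell, 82.8 to 118 in the core and 204 to 3172 in the VTA, where female VTA NIC 2 was the highest. Ttr, their defining product, was as low as 0.0915 CPM in the VTA and at 0 in at least 1 core library. All 6 meningeal fibroblast genes were higher in the shell than in the core (median 0.59), with summed levels of 205 to 598 CPM and 98.8 to 576 CPM. Of 6 striatal projection neuron genes 3 were higher in the core than in the shell and none higher in the shell. The part these cells had in the differences of the 6 genes was not tested.

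The second comparison, of NIC with SAL within each sex and region, is the one whose lists gave the names. Fitted for each sex and region on its own, no gene of the 16879 passed an adjusted threshold of 0.05 by edgeR in any of the 6 comparisons (0%). With all 12 groups in 1 edgeR fit 0 to 6 genes passed it, with the preparation batch as a covariate 0 to 1, and by DESeq2 0 to 9, none of them among the 6. At an unadjusted p under 0.05 the 6 genes gave 1 call in male VTA (5.62% of all genes were called, 2.35% as higher in NIC), 0 in male NAc core (9.83%), 0 in male NAc shell (2.46%), 1 in female VTA (9.24%, 4.04% as higher in NIC), 1 in female NAc core (6.45%, 3.57% as lower in NIC) and 5 in female NAc shell (10.1%, 5.25% as higher in NIC). These counts follow from how the names were found and are not evidence about the 6. Fits with the preparation batch as a covariate compare NIC with SAL only within batches that held both. These were batch C in males, J and L in the female VTA, and J in the female NAc core and shell. With that covariate the counts were 4 in male NAc shell (11.9% of all genes), 0 in female VTA (1.75%) and 3 in female NAc shell (3.73%). Without the libraries that stood apart they were 1 in male NAc core (10.2% of all genes, without SAL 1), 2 in male NAc shell (4.92%, without SAL 1) and 1 in female VTA (7.51%, without NIC 2), and the median log2 fold change was -0.07, -0.30 and 0.28, against -0.03, -0.29 and 0.40 with them. By DESeq2 2 were called in male NAc shell (2.54%) and 2 in female VTA (9.76%), and with all 12 groups in 1 edgeR fit 0 in male VTA (4.46%), 2 in male NAc shell (4.4%) and 3 in female VTA (11.8%).

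Leaving out 1 library at a time also moved these counts. In male NAc shell it gave 3 calls without NIC 14 (3.77% of all genes), SAL 2 (3.37%) or SAL 3 (3.20%), 2 without SAL 1 and 1 without SAL 5 (1.97%). In female VTA it gave 4 without NIC 1 (9.72%), 3 without NIC 8 (7.70%) and 2 without NIC 3, 4, 5 or 6 or SAL 14 or 16 (7.06% to 12.3%). In male NAc core it gave 1 without NIC 11 or 16 or SAL 1, 3, 4 or 5 (6.84% to 11.8%), in male VTA 2 without NIC 11 (6.43%) or SAL 4 (9.21%), and in female NAc core 2 without SAL 13 (6.08%) or SAL 16 (7.85%). In female NAc shell it gave 6 without SAL 15 (10.4%), and each other library left out gave 5. None of the 6 had NIC and SAL ranges that did not overlap, which 0.0118% of all genes had in male VTA, 0.0533% in male NAc core, 0.0118% in male NAc shell, 0.0415% in female VTA, 0.0237% in female NAc core and 0.0296% in female NAc shell.

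In the female NAc shell all 6 genes had higher mean levels in NIC than in SAL rats, with a median log2 fold change of 0.61 where that of all genes was 0.01. Rsph9 ranged from 14.2 to 19.1 CPM (median 16.5, n = 8) in NIC and from 11.1 to 18.1 (median 12.1, n = 8) in SAL rats, a log2 fold change of 0.40 ± 0.0950 (SE). A single SAL rat, number 16, reached into the NIC range. Rsph1 ranged from 5.63 to 10.6 CPM (median 9.43) in NIC and from 4.36 to 8.93 (median 6.42) in SAL rats, a log2 fold change of 0.55 ± 0.152. Ccdc114 ranged from 5.25 to 11.0 CPM (median 7.59) against 2.95 to 7.22 (median 4.97), with 0.71 ± 0.189, and Dnai1 from 4.12 to 9.85 (median 5.52) against 3.30 to 4.75 (median 4.34), with 0.56 ± 0.171. The low end of Dnah6 and Dynlrb2 was empty in NIC rats: Dnah6 ranged from 3.88 to 10.8 CPM against 0.768 to 8.17 in SAL rats, with 0.67 ± 0.378, and Dynlrb2 from 3.56 to 11.1 against 0.816 to 5.80, with 0.94 ± 0.355.

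Levels of other lists in that comparison are given beside them. Of 19 other ependymal markers 17 lay above 0 (median log2 fold change 0.68, 10 higher at unadjusted p under 0.05), and their summed level was 251 to 371 CPM in NIC and 207 to 302 CPM in SAL rats. All 6 striatal projection neuron genes were lower in NIC rats at that threshold (median -0.37), where 886 of all 16879 genes were called as higher and 823 as lower, with sums of 1069 to 2279 CPM against 1705 to 2443. Of 12 choroid plexus genes 7 lay above 0 (median 0.28), with sums of 90.5 to 153 CPM against 83.7 to 109, and of 6 hypothalamic and habenular genes 5 did (median 0.86), with sums of 5.04 to 21.0 CPM against 4.85 to 7.39. NIC and SAL were prepared mostly in separate batches. In batch J, which held 2 rats of each treatment in this comparison, the log2 difference was above 0 for all 6 genes, from 0.17 for Dnai1 to 1.81 for Dnah6. The part of dissection, batch or these cells in the values was not tested.

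The signs varied among the other comparisons. In the female VTA 5 of the 6 had a log2 fold change above 0, with a median of 0.40, and the largest was 1.73 ± 0.571 for Dnah6, at 0.864 to 11.2 CPM (median 1.53, n = 8) in NIC and 0.578 to 2.70 (median 0.815, n = 8) in SAL rats. The highest values came from a pair of NIC libraries. Dnah6 was at 11.2 CPM in female VTA NIC 2 and 8.44 in female VTA NIC 7, and the next highest NIC library was at 2.41. Without NIC 2 the log2 fold change was 1.19 for Dnah6, 0.46 for Dynlrb2 (1.01 with it) and 0.04 for Ccdc114 (0.20 with it), and without NIC 7 that of Rsph9 was 0.16 (0.34 with it). In NIC 7, Pmch, a hypothalamic neuropeptide, was at 191 CPM against a VTA median of 2.10, and the summed hypothalamic and habenular level of that library, 216 CPM, was the highest of all VTA libraries.

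In the female NAc core all 6 genes had lower mean levels in NIC than in SAL rats, with a median log2 fold change of -0.39. Dnai1 ranged from 2.53 to 4.18 CPM (median 3.51, n = 7) in NIC and from 3.68 to 6.69 (median 5.24, n = 8) in SAL rats, -0.60 ± 0.146. In the male NAc shell all 6 lay below 0 as well, with a median of -0.29, led by Dnah6 at -1.12 ± 0.567 and Dynlrb2 at -1.09 ± 0.551. Dynlrb2 there ranged from 0.202 to 4.55 CPM (median 1.38, n = 8) in NIC and from 0.857 to 8.55 (median 2.98, n = 8) in SAL rats, so the ranges overlapped. Of 19 other ependymal markers 2 lay above 0 in the male shell (median -0.56) and 1 in the female core (median -0.39). The part of dissection, batch or other cells in these values was not tested. Within batch C, which held 3 NIC and 2 SAL libraries of the male shell, all 6 differences were below 0, from -0.20 for Rsph9 to -2.46 for Dynlrb2. The medians in the male VTA (0.04) and male NAc core (-0.03) lay near 0 in the planned fits, with Ccdc114 at 3.87 to 6.53 CPM (n = 7) in SAL and 4.61 to 8.91 (n = 8) in NIC rats of the male VTA, 0.41 ± 0.156. With the preparation batch as a covariate the male VTA median was 0.53. Only batch C held both treatments in the male VTA, so this value rests on its 2 NIC and 2 SAL libraries. In the same libraries all 6 differences were above 0, from 0.04 for Rsph1 to 1.08 for Dnah6.

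**Figure D3:**
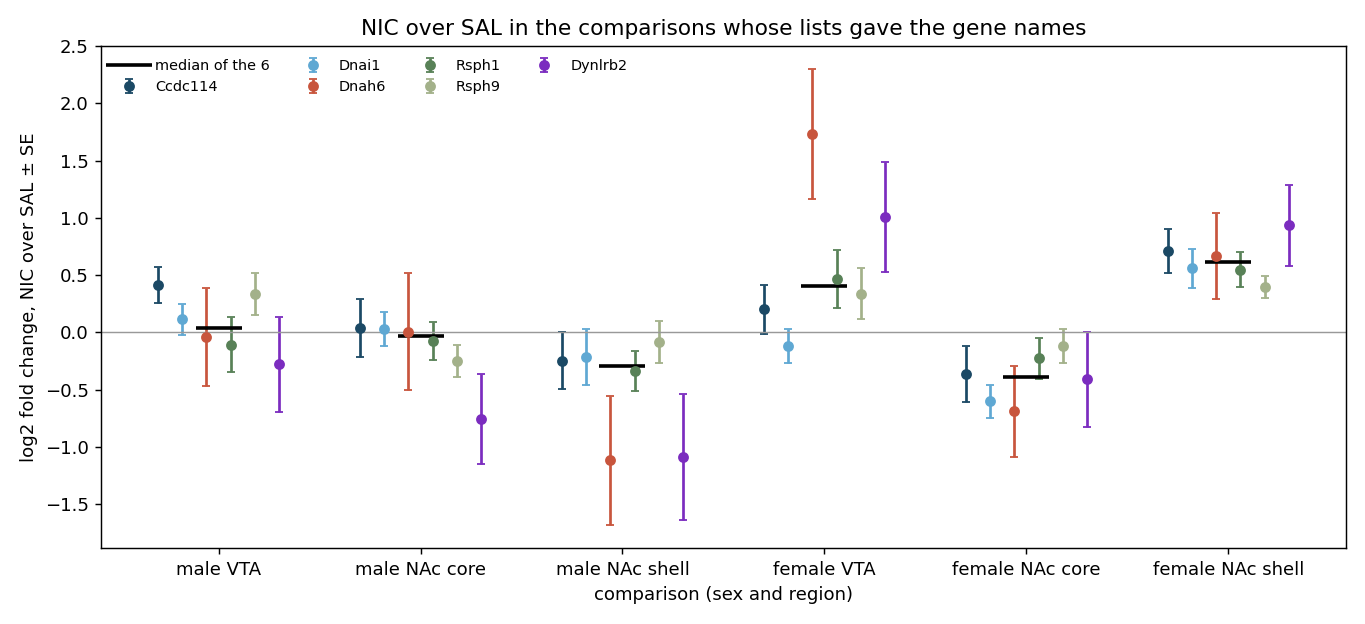
Log2 fold change of NIC over SAL (y axis) for each of the 6 genes in the 6 comparisons of sex and region (x axis), with bars of 1 SE and black lines at the median of the 6. All 6 points lie above 0 in the female NAc shell (median 0.61) and below 0 in the male NAc shell (-0.29) and female NAc core (-0.39). The genes were chosen by these comparisons, so the heights are descriptive.

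The levels of the 6 genes went up and down together between libraries of the same group. After the mean of each of the 12 groups was subtracted from log2 CPM, all 15 pairs had a Pearson r above 0 over the 94 libraries, from 0.28 for Dnah6 with Rsph9 to 0.83 for Dnah6 with Dynlrb2, with a median of 0.45. The median of Spearman's rho was 0.39. Without the 2 libraries farthest from the median of the genes' mean level, female VTA NIC 2 and male NAc shell NIC 14, the median r was 0.38 and all 15 pairs were still above 0. These libraries share rats across regions and batches within groups, and no p is attached to the values.

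The closest pair joined a motor and a light chain. Dnah6 and Dynlrb2 had r = 0.80 in the VTA (31 libraries), 0.81 in the NAc core (31) and 0.88 in the NAc shell (32), and between 0.75 and 0.98 in each of the 8 preparation batches with at least 6 libraries, centred within region. Ccdc114 followed Dnah6 with r = 0.73 over all libraries and was above 0 with it in all 8 batches. Rsph9 was the loosest member: its r with Dnah6 was 0.59 in the VTA, -0.04 in the core and 0.19 in the shell, and it was above 0 in 5 of 8 batches. The radial spoke pair Rsph1 and Rsph9 had r = 0.58 over all libraries. The outer arm pair Ccdc114 and Dnai1 had r = 0.44.

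How tightly the genes followed each other differed between regions. The median r of the 15 pairs was 0.64 in the VTA, where the lowest pair was at 0.51, and 0.60 in the NAc shell, where the lowest, Ccdc114 with Rsph9, was at 0.01. In the NAc core the median was 0.25 and 11 of 15 pairs were above 0, and Dnai1 stood out with values between -0.08 and 0.15 against each of the other 5. The difference between regions was not tested. The VTA values include female VTA NIC 2, which stood apart in its markers, and were not computed without it. Over all regions the median r without the 3 libraries that stood apart was 0.43, with all 15 pairs above 0. In single libraries the pattern was visible as joint highs and lows. Female VTA NIC 2, low in Slc6a3 and high in Ttr, had 9.92 CPM of Ccdc114, 11.2 of Dnah6, 8.90 of Dynlrb2 and 9.54 of Rsph1, each the highest in the VTA. Female NAc shell NIC 1 had 11.0, 10.8, 11.1 and 10.1 CPM of the same genes. Male NAc shell NIC 10 was low in Ccdc114 (2.22 CPM), Dnah6 (0.706) and Dynlrb2 (0.202), but its 6.51 CPM of Rsph1 lay above the median of its group, 5.71.

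**Figure D4:**
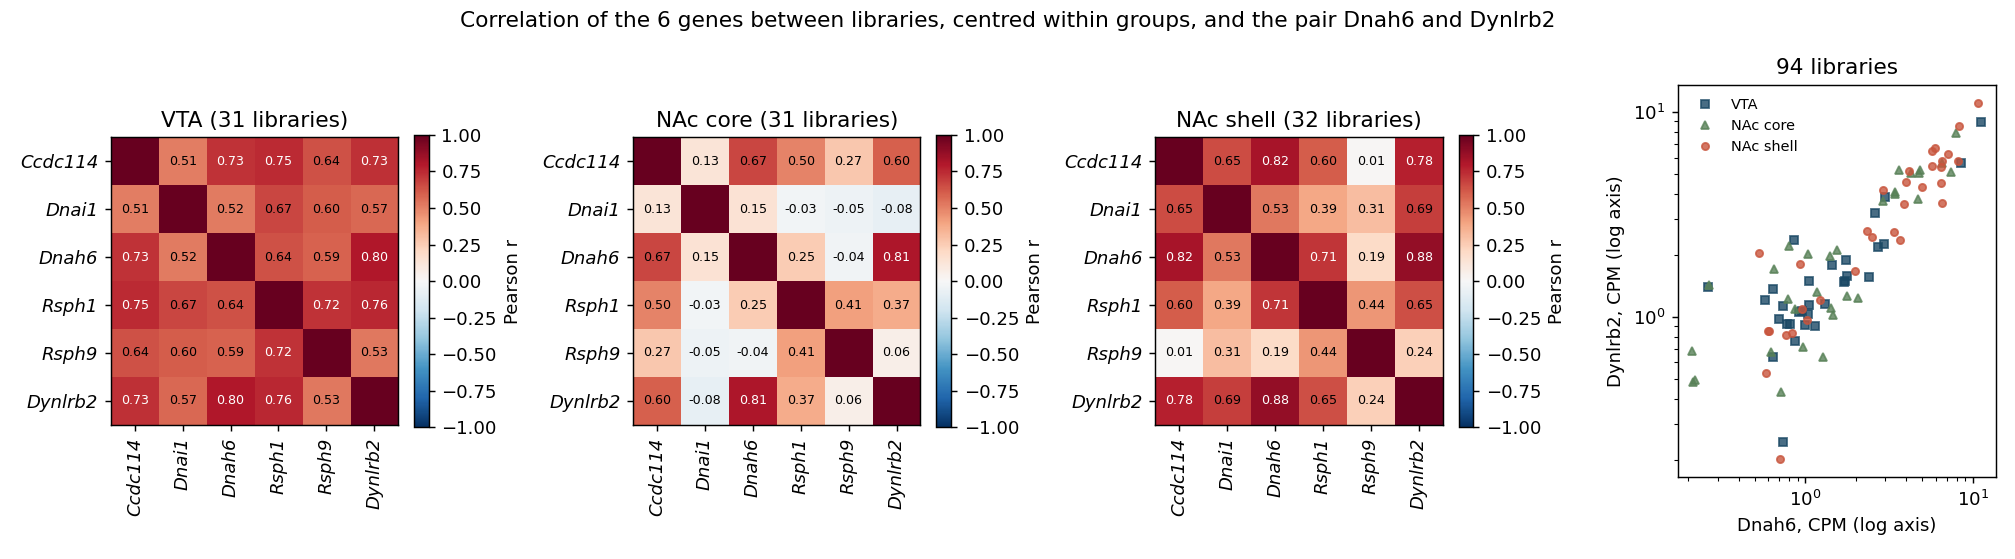
Pearson r between the 6 genes over the libraries of each region, after subtraction of group means (colour and printed values, 3 left panels), and the CPM of Dnah6 (x axis) against Dynlrb2 (y axis) in 94 libraries on log axes. The pair Dnah6 and Dynlrb2 stays at 0.80 to 0.88 in all 3 regions, whereas Dnai1 and Rsph9 are near 0 with several genes in the NAc core.

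The level of a library was weakly related to that of the other regions of the same rat. Between shell and core of the same rat, centred within groups, r ranged from -0.07 for Ccdc114 to 0.27 for Rsph1 (31 rats), and between the VTA and the shell from -0.18 for Dnah6 to 0.18 for Dynlrb2 (31 rats). Between the VTA and the core (30 rats) it lay between -0.02 and 0.13 for 5 of the genes and was 0.52 for Dnai1. These values were not tested.

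Genes outside the 6 were ranked by their r with the mean standardized level of the 6. Of the other 16873 genes, 17 had r over 0.8 and 237 over 0.5, and the median of all was -0.01. The 10 highest were Ccdc153 (0.88), Cfap65 (0.87), AABR07044444.2 (0.85), ENSRNOG00000012608 (0.85), Ppp1r32 (0.85), Wdr63 (0.84), Dnali1 (0.84), Cfap206 (0.83), Cfap126 (0.83) and ENSRNOG00000060984 (0.83). Of these, 6 were on the lists of axonemal or ependymal genes. Ccdc153 is an ependymal marker, Cfap65 belongs to the central pair, Wdr63 and Dnali1 to inner arms, Cfap206 to the base of a radial spoke and Cfap126 to the doublet microtubules. Ccdc153 had r = 0.91 in the VTA, 0.78 in the core and 0.91 in the shell.

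By list, likeness to the 6 was highest for the other inner arm genes, all 4 of which had r over 0.5 (median 0.83). It was 0.71 for 11 doublet proteins and 0.71 for 19 other ependymal markers, of which 17 were over 0.5. The 9 genes of the nexin-dynein regulatory complex and ruler had a median of 0.59, the 8 of the central pair 0.49, the 8 dynein arm assembly factors 0.45 and the other 6 outer arm genes 0.43, where Dnal1, a light chain, was at -0.04. Rfx2 was at 0.65. Genes of intraflagellar transport and the primary cilium had a median of 0.31, with 1 of 19 over 0.5. The median of 12 choroid plexus genes was 0.09, with Folr1 (0.75) and Clic6 (0.60) high and Ttr at 0.30. Lists of other cells were near or below 0, at -0.08 for astrocytes, -0.06 for oligodendrocytes, -0.12 for meningeal fibroblasts, -0.34 for endothelial cells, -0.23 for microglia and -0.25 for dopaminergic neurons, and were 0.19 for striatal projection neurons and 0.21 for hypothalamic and habenular genes, where Hcrt, the orexin precursor, reached 0.73. Folr1, Clic6 and Hcrt were named after their values were seen.

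**Figure D5:**
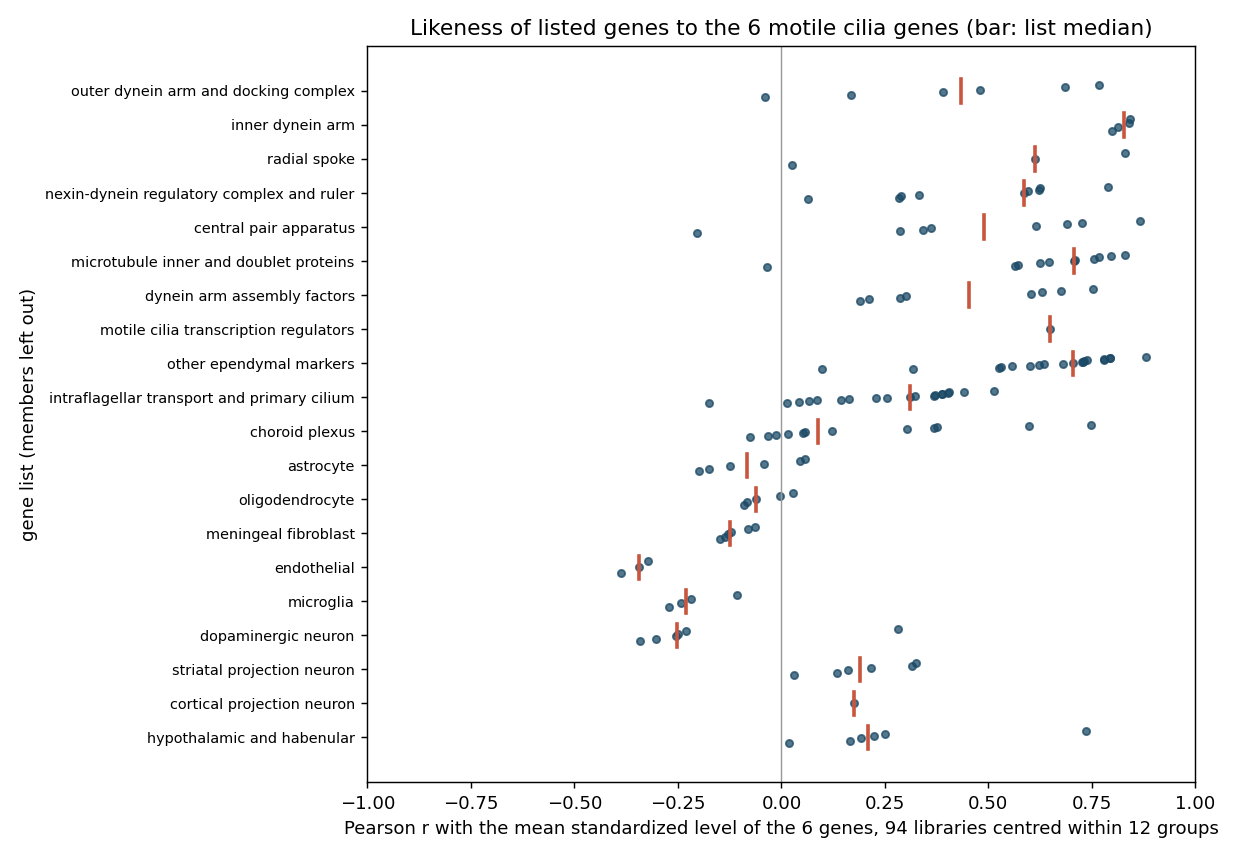
Pearson r of each listed gene with the mean standardized level of the 6 genes over 94 libraries centred within 12 groups (x axis), by gene list (y axis), with red bars at list medians and the 6 genes themselves left out. Inner arm genes (median 0.83), doublet proteins (0.71) and other ependymal markers (0.71) lie far to the right of endothelial (-0.34) and dopaminergic (-0.25) genes.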

How the data were processed

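Total RNA from hand-dissected VTA, NAc core and NAc shell was sequenced as paired reads. The authors trimmed reads with fastp 0.20.0, estimated transcript abundance with Salmon 0.12.0 on Rnor version 6 and collapsed it to genes with tximport, and the deposited counts are whole numbers per gene and library, not normalized. How the estimates became whole numbers is not given in the sources used here. Gene symbols came from pairs of identifiers and symbols in the study's tables, which named 7964 identifiers, and columns of the authors' own comparisons were not used. Of 96 libraries 94 were used. The library female NAc core NIC 1 and 1 of 2 libraries of male VTA SAL 5 were left out, since the study's clustering did not show them.

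The low-count filter kept a gene where 3 or more libraries exceeded 10 normalized counts. Counts were fitted with edgeR 4.0.16 in R 4.3.3 (TMM scaling, quasi-likelihood test, Benjamini-Hochberg adjustment, threshold 0.05), with 12 groups in 1 fit for regions and for the contrast of regions between sexes, and a fit per sex and region for NIC against SAL. Log2 CPM for correlations used a prior count of 2. Scripts were tested on simulated counts. Alternatives used DESeq2 1.42.0, other filters, the preparation batch as a covariate, the rat as a block, single treatments and single libraries left out. Libraries of a group are separate rats. The regions of a rat are paired by the animal in the labels: the median r of their deviations was 0.0870 within rats and -0.0071 between rats for shell and core, 0.0337 and -0.0022 for VTA and core, and 0.0330 and -0.0004 for VTA and shell.

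The members and gene lists were chosen with earlier results of these data known. Named beside the 6 were at most 3 genes per list, those with the largest VTA to shell difference at a mean of at least 1 CPM, the 10 genes most like the 6, and markers of libraries that stood apart. Leaving out those 3 libraries and the looser X-box were chosen after seeing the data. Promoters came from RefSeq (GRCr8), of which no coordinate was carried over to the counts.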

Additional observations from a re-analysis of the deposited data

Results flagged for a closer look

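In 8 of the 72 combinations of gene and group a single library lay far from the others of its group by Dixon's criterion, which chance alone meets in about 1 in 20 groups. Dnai1 was at 7.98 CPM in male VTA NIC 13, with the next library at 5.48, and at 2.53 CPM in female NAc core NIC 8, with the next at 3.39. Dnah6 was at 2.70 CPM in female VTA SAL 14, with the next at 1.04. Rsph1 was at 5.63 CPM in female NAc shell NIC 5, with the next at 7.96. Rsph9 was flagged in 4 groups. It was at 24.1 CPM in male NAc shell SAL 1, one of the libraries with few striatal markers, with the next at 15.9, and at 6.58 CPM in male NAc shell NIC 9, with the next at 12.0. It was also at 6.11 CPM in female NAc core SAL 13, with the next at 9.45, and at 18.1 CPM in female NAc shell SAL 16, with the next at 13.2.

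The VTA minus NAc core difference of Ccdc114 was larger in males than in females by 0.81 on the log2 scale (edgeR adjusted p = 0.0158). In NIC rats alone it was not called. Sex and preparation batch cannot be told apart in these libraries.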

How the results depend on the processing

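Of the alternative values of the counts of called genes, the medians and the correlation, 93 kept their size and 12 moved. The count of the 6 genes whose VTA to core difference differed between the sexes, 1 as planned (11.3% of all genes), was 2 by DESeq2 (2110 of the 16879 genes), 2 with the replicate block (rat) (11.9%), 3 with the preparation batch as a covariate (12.8%), 3 without the 3 libraries that stood apart (10.3%) and 0 in NIC rats only (0.0592%). It stayed at 1 in SAL rats only (3.71%). The count called between VTA and shell, 4 as planned (80.8% of all genes), was 2 in NIC rats only (71.2%). It was also 2 where all libraries had to reach 10 normalized counts (85.3% of 13024 genes), which left 4 of the 6 genes to test. The count that differed between the sexes in that contrast, 0 as planned (6.71%), was 1 in NIC rats only (3.38%) and 1 with the preparation batch (8.48%), Ccdc114 in both. The count between shell and core, 5 as planned (32.3%), was 4 with DESeq2 size factors (32.1%), 4 with the replicate block (33.7%) and 6 without the 3 libraries that stood apart (34.3%). It was 2 in SAL rats only (21.3%), where the difference of Dnai1 turned to -0.0083. In NIC rats only the shell to core count was 4 (15.0%). Fits of a single treatment hold fewer libraries, and why these counts and the difference of Dnai1 moved was not tested. With the preparation batch as a covariate NIC was compared with SAL only within batches that held both. These were batch C in males, J and L in the female VTA, and J in the female NAc core and shell. The median log2 fold change of NIC over SAL was then 0.53 in male VTA (0.04 without the covariate) and -0.82 in male NAc shell (-0.29 without it). It was 0.61 in female VTA (0.40 without it), 0.95 in female NAc shell (0.61), -0.49 in female NAc core (-0.39) and -0.11 in male NAc core (-0.03). The members called at an unadjusted p under 0.05 then numbered 4 in male NAc shell (0 without it), 0 in female VTA (1) and 3 in female NAc shell (5), where the share of all genes so called was 11.9% (2.46% without it), 1.75% (9.24%) and 3.73% (10.1%).

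Of the values of single genes, 312 kept direction and call, 11 lost and 12 gained a call, 12 moved and 1 reversed. The replicate block ended 1 region call, that of Dnai1 between shell and core (0.19, edgeR adjusted p = 0.0676). No paired analysis of NIC against SAL was possible because NIC and SAL rats have different numbers.

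With single libraries left out, the median log2 fold change ranged from -0.11 (without NIC 13) to 0.18 (without SAL 6) in male VTA, -0.16 (without NIC 13) to 0.01 (without SAL 6) in male NAc core, -0.44 to -0.20 in male NAc shell, 0.25 (without NIC 7) to 0.49 in female VTA, -0.51 to -0.24 in female NAc core and 0.52 to 0.73 in female NAc shell. Dnah6 and Dynlrb2 had as few as 4 counts in a library, which limits what can be told apart at their low end.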

Other observations

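The libraries left out of the comparisons are given here in counts per 1000000 without scaling for composition. In female NAc core NIC 1 Ccdc114 was at 3.62, Dnai1 at 3.67, Dnah6 at 0.352, Rsph1 at 1.76, Rsph9 at 7.65 and Dynlrb2 at 1.41. The 2 libraries of male VTA SAL 5 gave 4.73 and 5.47 for Ccdc114, 5.18 and 5.62 for Dnai1, 0.797 and 1.81 for Dnah6, 3.89 and 2.41 for Rsph1, 8.17 and 8.03 for Rsph9, and 1.44 and 1.61 for Dynlrb2, with the library left out first.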
